A study of Mus musculus with 7 samples.

Results

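The genes described here were 9 transcripts that mark microglia at rest: Tmem119, Gpr34, Olfml3, Sparc, Fcrls, Selplg, Crybb1, Ltc4s and Cd164. They were taken by gene name from the deposited counts table, which holds 55341 gene names. The rule that picks them uses no measured value, but the set was proposed with earlier results of these data known. Microglia, gated as CD11b+CD45low, had been sorted from grafts of WT (C57BL/6) embryonic cortical cells, or from pieces of nearby cortex, in 5xFAD mice. All recipients were of the C57BL/6 background, and only female mice were used in the study. They carried transgenes for mutant human amyloid precursor protein and presenilin 1, driven in neurons by the Thy1 promoter, and the labels give their age as 14 weeks. Grafts were taken 4 weeks after injection, so inside graft (3 libraries) and outside graft (4 libraries) shared genotype, age, surgery and gate. Each library of amplified cDNA was read as bulk RNA-seq, and no group without a graft or without the transgenes was analysed here.

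Homeostatic microglia carry a set of surface and secreted proteins that other brain macrophages have at lower levels, and this set is known to wane when microglia react to plaques or injury. TGF-β signalling and the transcription factors PU.1 and SALL1 are known to maintain it. The 9 genes differ in what they encode. Tmem119 encodes a transmembrane protein used to tell microglia from blood-borne macrophages, Gpr34 a receptor for lysophosphatidylserine, Fcrls a scavenger-receptor-like relative of Fc receptors, and Selplg the selectin ligand PSGL-1. Cd164 encodes endolyn, a sialomucin of the cell surface and of endosomes. Olfml3 and Sparc encode secreted proteins, an olfactomedin-like glycoprotein and a collagen-binding matrix protein. Crybb1 and Ltc4s do not match the description surface or secreted: the first encodes a β-crystallin, a cytosolic protein best known from the lens, and the second leukotriene C4 synthase, an enzyme of internal membranes that joins glutathione to leukotriene A4.

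In GENCODE M21 on GRCm38, the annotation of the counts, all 9 are protein-coding genes. Crybb1 spans chr5:112255815-112269585 on the + strand, and its exons sum to 985 bases. On the same chromosome lie Tmem119 (chr5:113793729-113800516) and Selplg (chr5:113818536-113832644), both on the - strand, 18020 bases apart with no other protein-coding gene between them. Ltc4s spans chr11:50236461-50238616 and Sparc chr11:55394500-55423183, both on the - strand. Fcrls spans chr3:87250758-87263738 and Olfml3 chr3:103722222-103738001, both on the - strand. Cd164 spans chr10:41519414-41531048 and Gpr34 chrX:13632089-13640858, both on the + strand. Reads were summed over all exons of a gene without strand. Ltc4s shares 268 exonic bases with the antisense gene Gm26542, so reads there cannot be assigned by strand and may be missing from the counts of both genes. Gpr34 lies within the span of Cask on the other strand and shares 0 exonic bases with it.

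Promoter sequence from RefSeq (GRCm38.p6) was at hand for 6 of the 9 genes, in windows of 250 bases before to 50 bases after the transcription start. The 3 stretches below are shown because Crybb1 and Ltc4s had the largest differences between the groups and Olfml3 one of the smallest. Each is the 150 bases before the first annotated exon, 5′ to 3′ on the strand of the gene. Capitals mark TATAAA, the TATA box, or GGAAGT, the core bound by PU.1, wherever either was found on either strand.
Crybb1 (chr5:112255665-112255814, + strand): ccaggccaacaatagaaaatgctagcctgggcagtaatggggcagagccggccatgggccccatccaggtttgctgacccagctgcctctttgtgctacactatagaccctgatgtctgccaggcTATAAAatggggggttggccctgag
Ltc4s (chr11:50238617-50238766, - strand): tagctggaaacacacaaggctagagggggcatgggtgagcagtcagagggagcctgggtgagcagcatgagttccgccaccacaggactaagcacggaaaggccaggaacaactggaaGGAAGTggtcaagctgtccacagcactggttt
Olfml3 (chr3:103738002-103738151, - strand): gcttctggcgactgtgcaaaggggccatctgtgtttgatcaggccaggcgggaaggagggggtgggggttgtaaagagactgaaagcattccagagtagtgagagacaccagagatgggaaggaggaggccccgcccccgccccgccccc
Crybb1 had TATAAA at position -30 from its RefSeq start, and Ltc4s had GGAAGT at position -116. Of all 32851 RefSeq promoter windows of this length, 13.6% held TATAAA and 23.8% held GGAAGT, at any position and on either strand. The share of windows with a match at these positions was not counted. The Olfml3 window held neither. Among the other 3 windows, Fcrls held both (GGAAGT on the opposite strand at -75 and TATAAA at -217), while the Sparc and Cd164 windows held neither.

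Total counts ran from 23241114 to 25882122 inside and from 18644807 to 24599193 outside the graft. Levels are given as CPM, the count of a gene relative to the total of its library after TMM scaling (edgeR's trimmed mean of log ratios). All 9 genes passed the filter on low counts, with at least 3232 counts in every library, so their precision was set by the spread between libraries and not by counting error. The labels do not say whether libraries came from separate mice, and P values measure only the spread between these samples. The microglial gene Csf1r, a growth factor receptor, was abundant in both groups, with means of 11900 CPM inside and 13087 CPM outside. Other cell types were also represented. The summed level of 10 neutrophil and lymphocyte genes was 3716, 386.8 and 7956 CPM in inside graft 1, 2 and 3 and between 0.32 and 171 CPM outside, most of it from the neutrophil genes S100a8 and S100a9. Of its lymphocyte genes, Cd3d and Ms4a1 had 0 counts in all libraries and Cd3e at most 1, while Cd79a ran from 0.08 to 1.35 CPM inside and from 0 to 0.48 CPM outside and Nkg7 from 0 to 12 CPM inside, with 0 counts outside. The summed level of 10 monocyte genes was 116.8 to 1608 CPM inside and 29.1 to 68.4 CPM outside. Most of the inside sums came from Chil3, at 586.9, 67.6 and 1188.5 CPM in inside graft 1, 2 and 3. Of the 10 genes, 3 had every inside library above every outside library, as had 862 of all 15257 genes tested. Ccr2 overlapped, with 4.26 to 73 CPM inside and 4.06 to 18.1 CPM outside. Of 10 border macrophage genes 8 were tested, and 7 of these had a higher fitted level inside the graft, with a median log2 fold change of 3.50 over the 8. Most of these lay near the floor outside: Clec10a, Cd163, Pf4, Cbr2 and Ms4a7 had means of 0.12 to 0.83 CPM there. F13a1 is also among the monocyte genes. Mrc1 had 7.81 to 61.2 CPM inside and 4.18 to 14.2 CPM outside. Their summed level, 395.8 to 654.1 CPM inside and 533.4 to 632.8 CPM outside, came mostly from Stab1, the 1 gene of the 8 with a lower fitted level inside. Neuronal genes summed to at most 11.42 CPM in any library. The part of these transcripts in the differences below was not tested.

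The 9 genes together took a smaller share of all counts inside the graft. The share was 2.13%, 2.00% and 1.84% in inside graft 1, 2 and 3 and 2.24%, 2.41%, 2.50% and 2.50% in outside graft 1, 2, 3 and 4, so the groups did not overlap. In bulk samples, fewer cells of a type and less RNA per cell cannot be told apart. Each of the 9 genes had a lower fitted level inside the graft, with a median log2 fold change (inside minus outside) of -0.32, against -0.01 over all 15257 genes tested and -0.03 over the 1917 genes with a mean of at least 100 CPM. A lower fitted level was found for 7753 of the 15257 genes and for 1091 of the 1917. The sizes were modest and uneven, from 1.55-fold lower for Crybb1 to 1.01-fold lower for Fcrls. No member passed an adjusted P of 0.01 with edgeR's quasi-likelihood test or with limma's voomWithQualityWeights, the test named in the study's methods. Over all genes these tests called 0% and 0% as lower. At an unadjusted P below 0.05, edgeR counted 6 of the 9 genes as lower, where the background was 3.79% of all genes and 8.4% of those with at least 100 CPM. At an adjusted P below 0.05, voomWithQualityWeights called 1 of the 9, Crybb1, where the background was 0.059%.

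**Figure D1:**
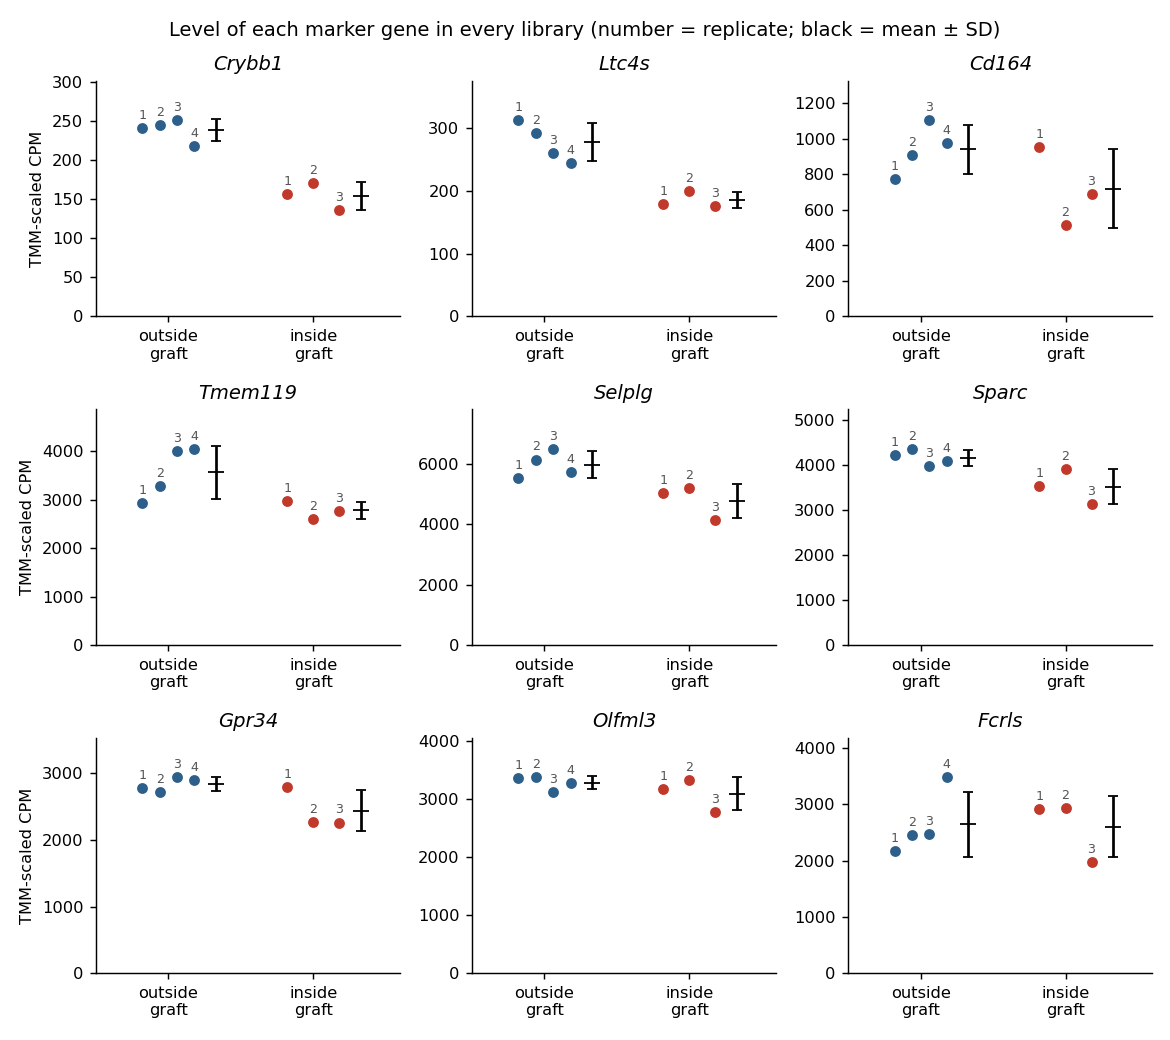
TMM-scaled CPM (y axis, from 0, a separate scale for each gene) of the 9 marker genes in the 4 libraries from outside (blue) and the 3 from inside the graft (red), numbered by replicate, with the mean and SD of each group in black. For Crybb1, Ltc4s, Selplg and Sparc every inside library lay below every outside library, while for the other genes the groups overlapped.

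Crybb1 had the largest difference. Its level was 157, 171 and 136 CPM in inside graft 1, 2 and 3 and 241, 245, 252 and 219 CPM in outside graft 1, 2, 3 and 4. The highest inside library lay well under the lowest outside library, and the group means were 155 ± 17.5 (SD, n = 3) and 239 ± 14.1 CPM (SD, n = 4). The edgeR log2 fold change was -0.63 ± 0.11 (SE), or 35.4% lower (95% confidence interval 22.8% to 45.9%), with an adjusted P of 0.075. With voomWithQualityWeights the log2 fold change was -0.61 and the adjusted P 0.041, and with DESeq2's Wald test the adjusted P was 4.01e-05. DESeq2 called 47 genes, 0.308% of all, as lower at 0.01 where the other tests called 0. The next protein-coding gene after Crybb1 on the chromosome, 7106 bases away, is Tpst2, described below. The crystallin gene 3297 bases before it, Cryba4, had 42.3 ± 10.2 CPM inside and 48.7 ± 6.88 CPM outside, with a log2 fold change of -0.20 ± 0.19 (SE).

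Ltc4s followed closely. Inside graft 1, 2 and 3 had 179, 200 and 176 CPM, and outside graft 1, 2, 3 and 4 had 312, 292, 261 and 244 CPM. All inside libraries were again below all outside libraries, and their spread was narrow (185 ± 12.9 CPM, SD, n = 3, against 277 ± 30.5 CPM, SD, n = 4). The edgeR log2 fold change was -0.58 ± 0.12 (SE), or 33.3% lower (19.7% to 44.5%). The adjusted P was 0.093 with edgeR, 0.064 with voomWithQualityWeights and 0.000612 with DESeq2. The overlapping antisense gene Gm26542 had 11.1 CPM inside and 17.9 CPM outside, far fewer counted reads than Ltc4s, though reads in the shared bases may be missing from both. Inside graft 2, the inside library with the least neutrophil and monocyte RNA, had 171 CPM of Crybb1 and 200 CPM of Ltc4s, below every outside library. With inside graft 1 and 3 both left out, a choice made after the data had been seen, the log2 fold changes were -0.48 for Crybb1 and -0.47 for Ltc4s. These values rest on 1 inside library and are no test, and the part of neutrophil and monocyte RNA in the differences was not tested.

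Of the surface receptors and sialomucins, Selplg had the most counts. It stood at 5027, 5185 and 4138 CPM in inside graft 1, 2 and 3 and at 5525, 6142, 6500 and 5729 CPM in outside graft 1, 2, 3 and 4. The groups did not overlap, and the log2 fold change was -0.32 ± 0.10 (SE), or 19.9% lower (6.97% to 31.1%), with an edgeR adjusted P of 0.26. Its neighbour Tmem119 had 2967, 2600 and 2773 CPM inside and 2944, 3285, 4006 and 4057 CPM outside in the same order. The outside libraries were spread widely for this gene, and outside graft 1 lay just under inside graft 1. The edgeR log2 fold change of Tmem119 was -0.36 ± 0.12 (SE) with an adjusted P of 0.32, and that of voomWithQualityWeights -0.44 with an adjusted P of 0.10. With single libraries left out, the edgeR value ran from -0.44 (adjusted P 0.15, without outside graft 1) to -0.29 (adjusted P 0.60, without outside graft 4).

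Gpr34 had 2786, 2261 and 2257 CPM inside and 2772, 2714, 2934 and 2899 CPM outside. Inside graft 1 lay among the outside libraries and the other two inside libraries below all of them. The log2 fold change was -0.22 ± 0.10 (SE), with an edgeR adjusted P of 0.52. Cd164 varied most inside the graft, with 953, 515 and 691 CPM in inside graft 1, 2 and 3, against 773, 907, 1103 and 973 CPM in outside graft 1, 2, 3 and 4. The groups overlapped through inside graft 1, and the log2 fold change of -0.38 ± 0.20 (SE) had a 95% interval from -0.82 to 0.05. That value rested in part on inside graft 2: it was -0.19 without this library and -0.64 without inside graft 1, with edgeR adjusted P values of 0.84 and 0.31. Fcrls did not separate the groups at all. Its level was 2909, 2927 and 1974 CPM inside and 2164, 2461, 2464 and 3478 CPM outside, so that the lowest library was inside graft 3 and the highest outside graft 4. Its log2 fold change was -0.02 ± 0.18 (SE), with an interval from -0.42 to 0.38, and its sign turned positive with inside graft 3 left out (0.14) or outside graft 4 left out (0.14).

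The secreted proteins differed from each other. Sparc had 3524, 3895 and 3119 CPM in inside graft 1, 2 and 3 and 4212, 4354, 3965 and 4071 CPM in outside graft 1, 2, 3 and 4. Its groups did not overlap, although inside graft 2 came close to outside graft 3, and the log2 fold change was -0.24 ± 0.09 (SE) with an edgeR adjusted P of 0.40. Without inside graft 1 and 3 it was -0.09, on 1 inside library. Olfml3 had 3176, 3331 and 2775 CPM inside and 3354, 3376, 3124 and 3277 CPM outside. Inside graft 1 and 2 lay within the outside range and only inside graft 3 lay below it. The log2 fold change of Olfml3 was -0.09 ± 0.09 (SE), and its 95% interval of -0.28 to 0.11 left room for at most 17.5% lower. With single libraries left out it ran from -0.14 without inside graft 2 to -0.01 without inside graft 3. Across the 9 genes no edgeR interval reached a log2 fold change of -1, the lowest bound being -0.89 for Crybb1.

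**Figure D2:**
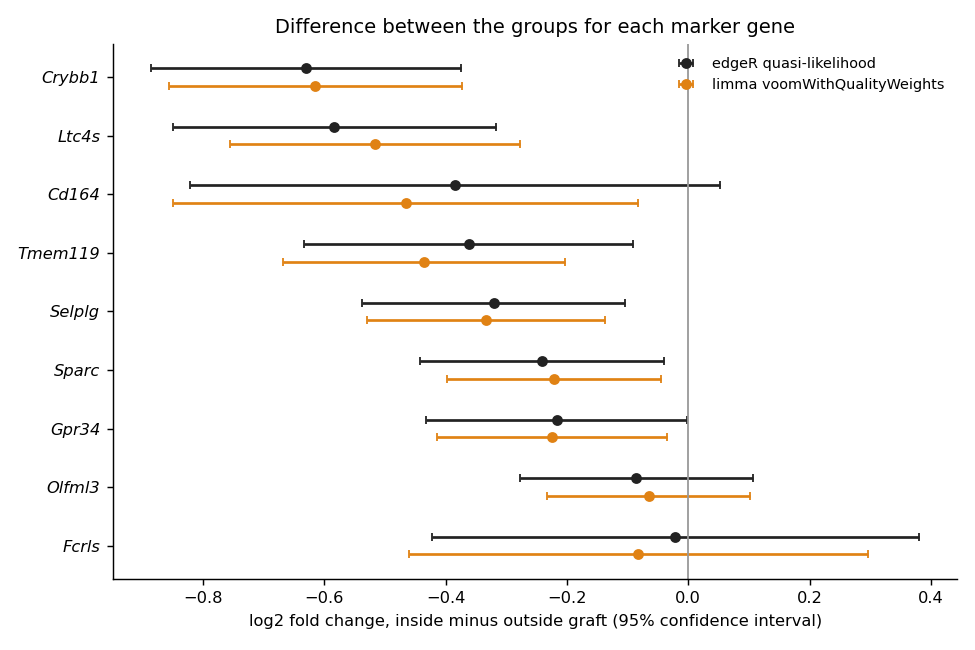
log2 fold change, inside minus outside graft (x axis), of each gene with its 95% confidence interval from edgeR (black) and voomWithQualityWeights (orange), ordered by the edgeR value. Crybb1 and Ltc4s lie farthest from 0 at -0.63 and -0.58, and the intervals of Olfml3 and Fcrls span 0 in both tests.

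In 4 of the 9 genes (Crybb1, Ltc4s, Selplg and Sparc) every inside library lay below every outside library. This was so for 5.02% of all genes tested and for 9.6% of those with a mean of at least 100 CPM, the range in which all 9 genes lie. None of the 9 had every inside library above every outside library. The median of the 9 log2 differences from the outside mean was -0.24, -0.32 and -0.41 in inside graft 1, 2 and 3 and between -0.03 and 0.05 in the outside libraries. The 3 inside libraries did not order the genes alike. Inside graft 1 was at the outside mean for Gpr34 (-0.02) and Cd164 (0.03), inside graft 2 had the lowest Cd164 (-0.86) with Olfml3 at 0.02, and inside graft 3 was low in all 9, from -0.24 for Olfml3 to -0.81 for Crybb1.

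**Figure D3:**
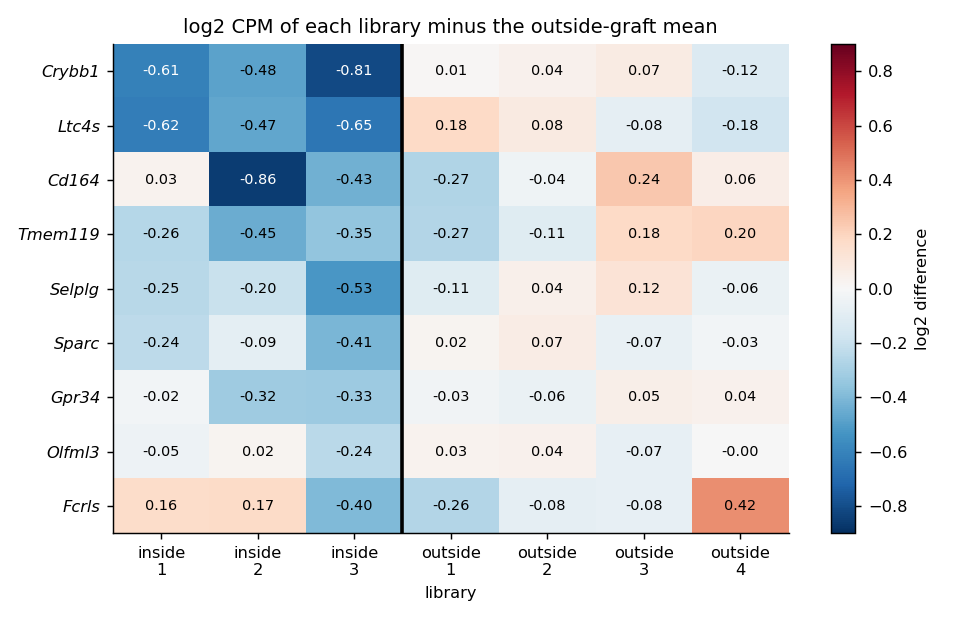
log2 difference of each library (columns) from the mean of the outside libraries for each gene (rows, ordered by the edgeR fold change), with blue below and red above that mean and a black line between the groups. Crybb1 and Ltc4s are at or below -0.47 in every inside library, while Fcrls is above 0 in inside graft 1 and 2 and at -0.40 in inside graft 3.

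Because the 9 genes were measured in the same libraries, the ratio of one gene to another within a library does not depend on how libraries were scaled. There were 36 pairs. In order of fold change the genes ran Crybb1, Ltc4s, Cd164, Tmem119, Selplg, Sparc, Gpr34, Olfml3 and Fcrls. Neighbours in this order have close fold changes by construction, and for 0 of these 8 pairs did the ratio separate the groups. For 8 of the 36 pairs it did. Crybb1 was lower relative to Selplg (difference of log2 fold changes -0.31 ± 0.05, SE), Sparc (-0.39 ± 0.05), Gpr34 (-0.41 ± 0.14) and Olfml3 (-0.54 ± 0.06). Ltc4s was lower relative to Sparc (-0.33 ± 0.08) and Olfml3 (-0.49 ± 0.08), and Selplg and Sparc were each lower relative to Olfml3 (-0.24 ± 0.08 and -0.16 ± 0.03). These are descriptions with no P value. The pairs share genes, and the share among pairs of other genes was not counted, so 8 of 36 has no background. Crybb1 and Ltc4s themselves differed by -0.05 ± 0.09, within the spread.

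Per kilobase of exon, the genes spanned a wide range of abundance. Outside the graft the mean level was 1543 ± 237 CPM per kb (SD, n = 4) for Tmem119, 1398 ± 102 for Selplg, 1354 ± 49.7 for Gpr34, 1132 ± 246 for Fcrls and 1096 ± 44.7 for Sparc, and none of these neighbours differed beyond its spread. Olfml3 followed at 533 ± 18.5 CPM per kb, apart from Sparc above and Ltc4s below, over an annotated exon length of 6161 bases. The lowest levels were those of Ltc4s at 273 ± 30.1, Crybb1 at 243 ± 14.3 and Cd164 at 211 ± 30.8 CPM per kb, each overlapping the next. The length used for Ltc4s, 1014 bases, includes the 268 shared with Gm26542. Reads there may not have been counted, so the level of Ltc4s per kb may be too low and its place beside Crybb1 is uncertain. Inside the graft Tmem119 (1201 ± 79.3 CPM per kb, SD, n = 3), Gpr34 (1165 ± 146), Selplg (1120 ± 132), Fcrls (1115 ± 234) and Sparc (927 ± 102) overlapped in turn. Crybb1 came last, at 157 ± 17.7, within the spread of Cd164 at 162 ± 49.5. The largest fold differences thus belonged to 2 of the 3 genes with the lowest level per kb.

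Genes around Ltc4s in the leukotriene pathway did not share one direction. Of 14 listed genes 11 were tested, 4 with a lower and 7 with a higher fitted level inside the graft, and 0 passed an adjusted P of 0.05 in either direction with either test. Every inside library lay below every outside library for 2 of the 11 and above for 2. Among all 15257 genes this was so for 766 and 862. The 2 above were Mgst2 (means of 10.7 CPM inside and 0.95 outside) and Ltb4r1 (15.0 and 0.88), both near the floor outside. These 2 were named after their values were seen. Alox5ap, which presents arachidonic acid to 5-lipoxygenase, had 172, 189 and 179 CPM inside and 205, 260, 201 and 219 CPM outside, with a log2 fold change of -0.30 ± 0.12 (SE). Its groups did not overlap. Cysltr1, a receptor for the cysteinyl leukotrienes, had 129, 102 and 108 CPM inside and 132, 137, 148 and 123 CPM outside, a difference of -0.26 ± 0.12 (SE) with an overlap at inside graft 1. Lta4h, whose enzyme turns leukotriene A4 into leukotriene B4, lay the other way, at 133, 78.2 and 203 CPM inside and 67.4 to 84.6 CPM outside. Its higher libraries, inside graft 1 and 3, were those with the most neutrophil RNA, and the part of that RNA was not tested.

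Around Selplg, 12 of 14 listed selectins and glycan enzymes were tested, 5 lower and 7 higher inside the graft, with 0 past an adjusted P of 0.05. Tpst2, a tyrosine sulfotransferase that modifies PSGL-1 and the gene next to Crybb1, had 272, 323 and 284 CPM inside and 367, 378, 405 and 378 CPM outside. Every inside library was lower, and the log2 fold change was -0.38 ± 0.11 (SE), with an adjusted P of 0.21 with edgeR and 0.079 with voomWithQualityWeights. The sialyltransferase gene St3gal6 (423 ± 36.8 CPM inside, 455 ± 32.4 outside) and Gcnt1, which encodes a branching enzyme of O-glycans (254 ± 76.3 and 244 ± 23.4 CPM), did not separate the groups. Around Gpr34, 3 of 7 genes were tested and 0 passed. Abhd16a, which makes lysophosphatidylserine, had 84.6 ± 9.87 CPM inside and 95.4 ± 11.8 outside, Abhd12, which degrades it, 1814 ± 258 and 1644 ± 88.1 CPM, and Liph, encoding a phospholipase, 83.6 ± 10.6 and 95.7 ± 17.3 CPM.

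Close relatives of the members were mostly not expressed. Of 11 relatives of Sparc and Olfml3, 3 were tested and only Olfml2b exceeded 10 CPM on average (56.9 ± 22.2 inside, 56.7 ± 11.2 outside). Of 15 Fc receptor-like, crystallin and sialomucin genes, 5 were tested. Fcrl1 stood at 42.7 ± 19.8 CPM inside and 58.9 ± 15.5 outside, and Cd34, a sialomucin like Cd164, at 490 ± 121 inside and 394 ± 62.3 outside. None of these genes passed an adjusted P of 0.05.

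A list of 24 other homeostatic microglia genes gave the same direction with a smaller median. Of these, 20 had a lower and 4 a higher fitted level inside the graft, with a median log2 fold change of -0.15 and, for 6 of 24, every inside value under all outside ones, where the background was the 5.02% of all genes and 9.6% of abundant genes given above. With edgeR 0 passed an adjusted P of 0.05, and with voomWithQualityWeights 1 did, Rhob, a small GTPase. Rhob had 306, 317 and 298 CPM inside and 505, 429, 435 and 418 CPM outside, a log2 fold change of -0.54 ± 0.11 (SE), near those of Crybb1 and Ltc4s. Cst3, a secreted protease inhibitor with the most counts of the list, had 31284 ± 5230 CPM inside and 34077 ± 5002 outside, and Ctss, a lysosomal protease, 8938 ± 1807 and 8042 ± 651 CPM. P2ry12 and P2ry13, purine receptors named here after their values were seen, had log2 fold changes of -0.46 ± 0.12 and -0.52 ± 0.14 (SE), and their groups did not overlap. Serpine2, a secreted protease inhibitor also named after its value was seen, lay highest at 0.57 ± 0.19 (SE).

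**Figure D4:**
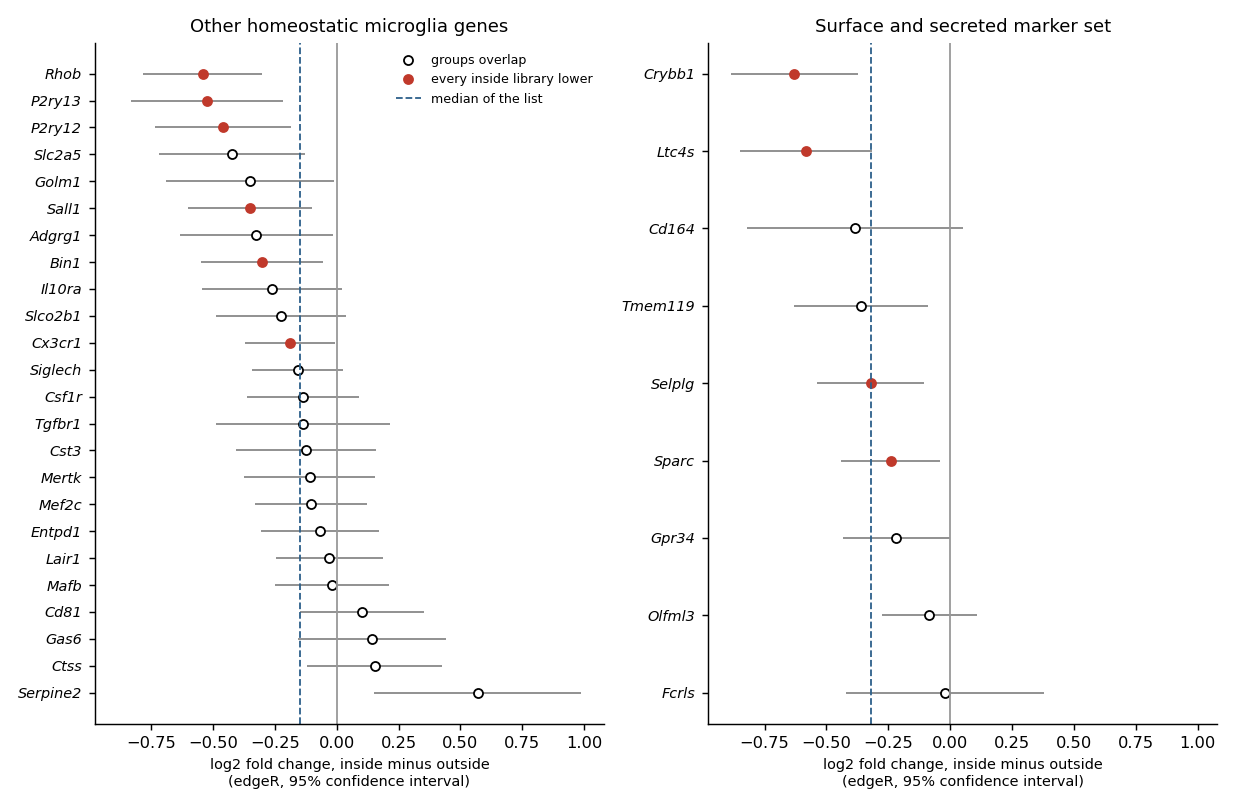
edgeR log2 fold change with its 95% confidence interval (x axis) for 24 other homeostatic microglia genes (left) and the 9 genes described here (right). Filled red points mark genes whose inside libraries all lay below the outside ones (6 of 24 and 4 of 9), open points genes whose groups overlap, and the dashed line the median of each list (-0.15 and -0.32).

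Regulators of the homeostatic state were measured as well. Of 18 listed genes of TGF-β signalling and microglial transcription factors 16 were tested, 11 with a lower and 5 with a higher fitted level, a median log2 fold change of -0.07 and 0 past an adjusted P of 0.05. The 3 with the highest level were Tgfbr2, a TGF-β receptor (952 ± 104 CPM inside, 804 ± 74.3 outside), the transcription factor gene Irf8 (794 ± 125 and 770 ± 35.4) and Mef2a, which encodes another (507 ± 55.0 and 554 ± 80.1). Spi1, the gene of PU.1, named for the motif shown above, had 270 ± 27.7 CPM inside and 330 ± 11.8 outside, a difference of -0.29 ± 0.11 (SE), with every inside library lower. Plaque-associated genes went the other way. All 20 had a higher fitted level inside the graft, with a median log2 fold change of 1.44, and 6 passed an adjusted P of 0.05 with voomWithQualityWeights, where the background of higher genes was 0.433%. Among the 6 was Fabp5, a fatty acid-binding protein gene, at 18.0 ± 7.97 CPM inside and 2.61 ± 0.91 outside.

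Among the 8908 other genes with a mean of at least 10 CPM, 5 had a profile over the 7 libraries closest to the mean profile of the 9 markers, by the root mean square difference of centred log2 CPM. These were Bicd2 (0.03), Cnot8 (0.05), Ninj1 (0.05), Clec4a3 (0.05) and Tes (0.05), where the median over the candidates was 0.28. Bicd2, encoding a motor adaptor, had 136 ± 14.0 CPM inside and 169 ± 2.51 outside. Clec4a3, encoding a C-type lectin receptor, had 101 ± 5.07 and 127 ± 2.68 CPM. The 5 genes were picked by this profile, so their lower levels inside and small distances follow from the choice. The members' own distances from their mean ran from 0.07 for Selplg to 0.25 for Fcrls.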

How the data were processed

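Libraries of sorted microglia were sequenced as single reads. The authors aligned them with STAR 2.7.2a to the mouse genome (GENCODE M21, GRCm38), after base calls were converted with bcl2fastq 2.18, and the deposited values are raw counts per gene name from featureCounts 1.6.2, without normalization. Per the file headers, strand was ignored and reads aligned to several places were left out, which lowers genes with near-identical copies. Reads were amplified and carry no molecular identifiers, so totals overstate the molecules sampled. The tested genes (15257) were kept with filterByExpr and scaled with TMM. Groups, taken from the labels, were compared with edgeR 4.0.16 (glmQLFit, glmQLFTest) and limma 3.58.1 (voomWithQualityWeights) in R 4.3.3, with Benjamini-Hochberg adjustment and a threshold of 0.01. SEs of edgeR are those implied by its F statistic. DESeq2 1.42.0 was an alternative. Scripts were tested on simulated data. All 9 pairs of libraries within a group differed by more than counting noise (chi-square per degree of freedom at least 17.5). The members and lists were chosen with earlier results of these data known. Of each other list, the rule named the 3 tested genes with the highest mean CPM and up to 3 past an adjusted P of 0.05, and the 5 nearest profiles. Summed lists of other cell types described the libraries. Alternatives were other normalizations, filters and tests, a replicate block, and the removal of single libraries. Leaving out inside graft 1 and 3 together was chosen after the data had been seen. Some listed genes and the results that needed them are not reported here.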

Additional observations from a re-analysis of the deposited data

Results flagged for a closer look

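With 4 outside libraries, a library was marked by Dixon's test where its gap to the others was too large a part of the range. Of 78 values tested 12 were marked, where chance gives about 3.9 (1 in 20), and none was a value of the 9 marker genes. Outside graft 3 stood above the other outside libraries for S100a8 (80.3 CPM), S100a9 (85.9), Ly6g (0.72), Chil3 (15.0), Hp (2.45) and the sum of the neutrophil and lymphocyte genes (171), and below them for Pecam1 (27.3). Outside graft 2 stood above them for the proliferation genes Top2a (9.52 CPM) and Mki67 (3.60), and outside graft 4 for Fcrl1 (81.8). Outside graft 1 stood above them for Rbfox3 (1.92 CPM) and for the sum of the mural cell and fibroblast genes (6.94).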

How the results depend on the processing

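Over 16 alternative settings the log2 fold changes of the 9 genes were recomputed 144 times and were negative in 139. These refits used the same 7 libraries or part of them, so the 144 values are not independent. Of the 5 positive values, 4 were for Fcrls: 0.14 without inside graft 3, 0.14 without outside graft 4, 0.12 with the replicate block, and 0.15 without inside graft 1 and 3 together. With single libraries left out its value ran from -0.11 to 0.14. The other was Olfml3, at 0.0245 without inside graft 1 and 3. The count of members lower at an adjusted P of 0.01 was 0 in all edgeR and voom settings that kept at least 2 inside libraries. Every single library left out is included in these. The count was 2 with DESeq2 (Crybb1 and Ltc4s), which also called 1 of the other homeostatic genes and 0.308% of all genes. It was 1 with voomWithQualityWeights at a threshold of 0.05, where the background was 0.059%. Leaving aside the setting with 1 inside library, the adjusted P of Crybb1 ran from 4.01e-05 (DESeq2) to 0.25 (edgeR without inside graft 3). That of Ltc4s ran from 0.000612 to 0.29 in the same 2 settings. With edgeR and no filter on low counts the adjusted P values were 0.016 for Crybb1 and 0.030 for Ltc4s. With at least 10 counts in every library they were 0.031 and 0.049. The share of all genes below 0.05 under these filters was not counted. With single libraries left out, the median of the 9 ran from -0.36 to -0.23 (without inside graft 3), and 4 to 7 genes did not overlap between groups, 7 without inside graft 1. With library size alone it was also 7. The share of all genes without overlap was not counted under these settings, so these counts have no background. With a library left out, any gene separates the groups more easily. The cause of these changes was not tested. Same-numbered libraries did not deviate together (correlations of -0.03, 0.07 and 0.06), and the numbers are not taken as pairs. These values cannot show whether inside and outside libraries share mice, and the main tests do not allow for shared mice. The replicate block, which leaves out outside graft 4, gave a median of -0.28 and again 0 members past 0.01. In the main setting none of the 9 differences passed an adjusted P of 0.01 with edgeR or voomWithQualityWeights. At 0.05 only that of Crybb1 did, with voomWithQualityWeights. With 3 and 4 libraries, most of these differences, the smallest being those of Olfml3 and Fcrls, could thus not be told from 0 at these thresholds.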

Other observations

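Proliferation genes were measured beside the markers. All 8 listed had every inside library above every outside library, as had 862 of all 15257 genes. Of the 8, Top2a (27.9 ± 2.41 CPM inside, 2.47 ± 4.70 outside) and Birc5 (11.6 ± 4.57 and 2.27 ± 1.88) had an adjusted P below 0.05 with voomWithQualityWeights, as had 0.433% of all genes in this direction. The sorting marker Ptprc (CD45) had 545 ± 19.5 CPM inside and 425 ± 56.8 outside, and Itgam (CD11b) 336 ± 21.8 and 325 ± 58.7. Slc1a3, a glutamate transporter listed as an astrocyte gene, had 268 ± 21.4 CPM inside and 338 ± 12.1 outside and made up most of the astrocyte sum.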
